A study of Mus musculus with 12 samples.

Results

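The clustered protocadherins of the mouse genome were followed through RNA-Seq of epiblast-like cells (EpiLCs) that carried or lacked a functional *Kdm5c* gene. The members were the genes whose symbols name a numbered *Pcdha*, *Pcdhac*, *Pcdhb*, *Pcdhga*, *Pcdhgb* or *Pcdhgc* gene, 58 of the 22911 genes of the deposited tables: 14 in the alpha cluster, 22 in the beta cluster and 22 in the gamma cluster. The symbol alone chose them, and no measured value was used. *Kdm5c*, an X-linked gene that escapes X-inactivation, encodes a demethylase of di- and trimethylated lysine 4 of histone H3, and the study examined its part in the induction of *Xist*, the RNA that silences an X chromosome. EpiLCs were made from embryonic stem cells (ESCs) by 48 h of culture with FGF2 at 10 ng/ml and Activin A at 20 ng/ml, with 3 samples in each of 4 groups. The female groups were *Kdm5c* fl/fl controls and *Kdm5c* Δ/Δ mutants, and the male groups *Kdm5c* flY controls and *Kdm5c* ΔY mutants. The controls thus carried the floxed gene, and the mutants the same gene without exons 11 and 12, which encode part of the catalytic domain. The labels name the strain C57BL/6J, while the methods put the floxed strain on a mixed background, and the labels call the genotypes *Smcx* wild type and knockout, after an older name of the gene. Each sample of a genotype was an ESC line of its own, derived and cultured on feeder fibroblasts, then passaged on gelatin before the EpiLC culture on fibronectin.

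Clustered protocadherins are cadherin-like adhesion proteins of the cell surface, best known in neurons. There each cell switches on its own small combination of isoforms, and the combinations, which bind like to like across membranes, let a neuron tell its own branches from those of other cells. Each isoform of the alpha and gamma clusters starts from a promoter and a large variable exon of its own, which encodes the extracellular part, the membrane span and the first part of the tail, and is spliced to constant exons that all isoforms of the cluster share. Beta isoforms have no constant exons. The gamma cluster holds A-type and B-type isoforms, whose promoters are chosen by chance in each neuron with the help of CTCF and cohesin, and the C-type isoforms at the end of the cluster (*Pcdhgc3*, *Pcdhgc4* and *Pcdhgc5*), which are expressed more broadly among neurons. The alpha cluster ends in the C-type isoforms *Pcdhac1* and *Pcdhac2*.

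The 3 clusters lie in tandem on the plus strand of chromosome 18. In the mm9 build that the authors mapped to, the multi-exon alpha transcripts spanned chr18:37089939-37347311, the beta genes chr18:37424652-37681073 and the multi-exon gamma transcripts chr18:37833989-38001527, which is 257.4 kb, 256.4 kb and 167.5 kb. In the GENCODE vM1 annotation, 20 of the 22 beta genes were single exons, and the alpha and the gamma transcripts with 4 exons each shared their last 3 exons. Paralogs in a cluster resemble each other in sequence, and reads of 50 bp were kept when they mapped to a single place. Of all 50-base windows of a beta gene, 88.0% to 100% (median 96.1%) occurred once in the genome. This share was 80.8% to 100% (median 86.6%) for 9 annotated variable exons of the alpha cluster and 88.1% to 100% (median 100%) for 9 of the gamma cluster. How a read in a shared exon was counted is not given in the sources used here. *Pcdhga6* held only 1 to 5 reads in each library, so at most that many reads of shared exons can have been counted to every gamma gene at once.

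The tables give the mean normalized count of each genotype, which is the read count divided by a size factor of the library, averaged over 3 libraries. From these means the whole-number reads of the single libraries were recovered, and the libraries of a genotype were named A, B and C by falling size factor, since the means do not tie a library to a sample number. A library held 5516216 to 11092731 reads in the genes for which this succeeded in its genotype. It succeeded in all 12 libraries for 22808 genes. The differences below are log2 fold changes of normalized count + 1 with a standard error (SE) from limma, and a gene passed the test at a Benjamini-Hochberg adjusted p under 0.05 over all genes fitted. *Kdm5c* itself, which keeps its other exons in the mutants, had 2315 to 2429 normalized counts in the female controls and 1406 to 1505 in Δ/Δ EpiLCs (log2 fold change −0.70, SE 0.05, limma adjusted p = 4.70e-09). It had 2110 to 2371 in male controls and 1897 to 1976 in ΔY EpiLCs (−0.20, SE 0.11, limma adjusted p = 0.274).

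Some male libraries stood apart. In flY libraries A and C, 4961 genes that were nearly silent elsewhere (under 0.5 on average over the 9 remaining non-flY libraries) had a mean of 1.62 and 1.80 normalized counts per gene, against 0.153 in flY library B. The 9 that defined the list had 0.0713 to 0.110. Library A of the ΔY genotype differed from ΔY libraries B and C in many genes, the gamma protocadherins among them (below). Marker sums also set single male libraries apart. The 12 epiblast markers in the tables, *Pou5f1*, *Nanog*, *Fgf5* and *Otx2* among them, were read in all 12 libraries, at a summed 15272 to 30405 normalized counts. The sum was 30405 in flY library B and 21994 and 21861 in A and C, and that of 11 naive ESC markers was 3429 in B and 2028 and 1943 in A and C. The summed level of 11 extraembryonic endoderm markers was 552 to 614 in fl/fl and 6764 to 6975 in Δ/Δ EpiLCs. In males it was 3125, 5474 and 2988 in flY libraries A, B and C, and 958, 6608 and 6718 in the ΔY libraries. In these bulk samples, fewer cells that express a gene and less RNA per cell cannot be told apart.

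The gamma cluster was expressed and the alpha and beta clusters were close to silent. Over the 12 libraries, the gamma members together held 5136 reads, the beta members 241 and the alpha members 158. All 22 gamma members had reads in every library. None of the 36 alpha and beta members reached a mean of 10 normalized counts, which 13 of the 22 gamma members did. The highest alpha member was *Pcdhac2*, a C-type isoform known for the spacing of serotonergic axons, with a mean of 3.15 and 1 to 7 reads in a library. The highest beta member was *Pcdhb5* with 2.08, followed by *Pcdhb22* with 1.83 and *Pcdhb2* with 1.80. *Pcdha4* had no read in any library, and a count of 0 allows up to 3 reads over a group, a mean of 0.869 to 1.13 normalized counts.

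**Figure D1:**
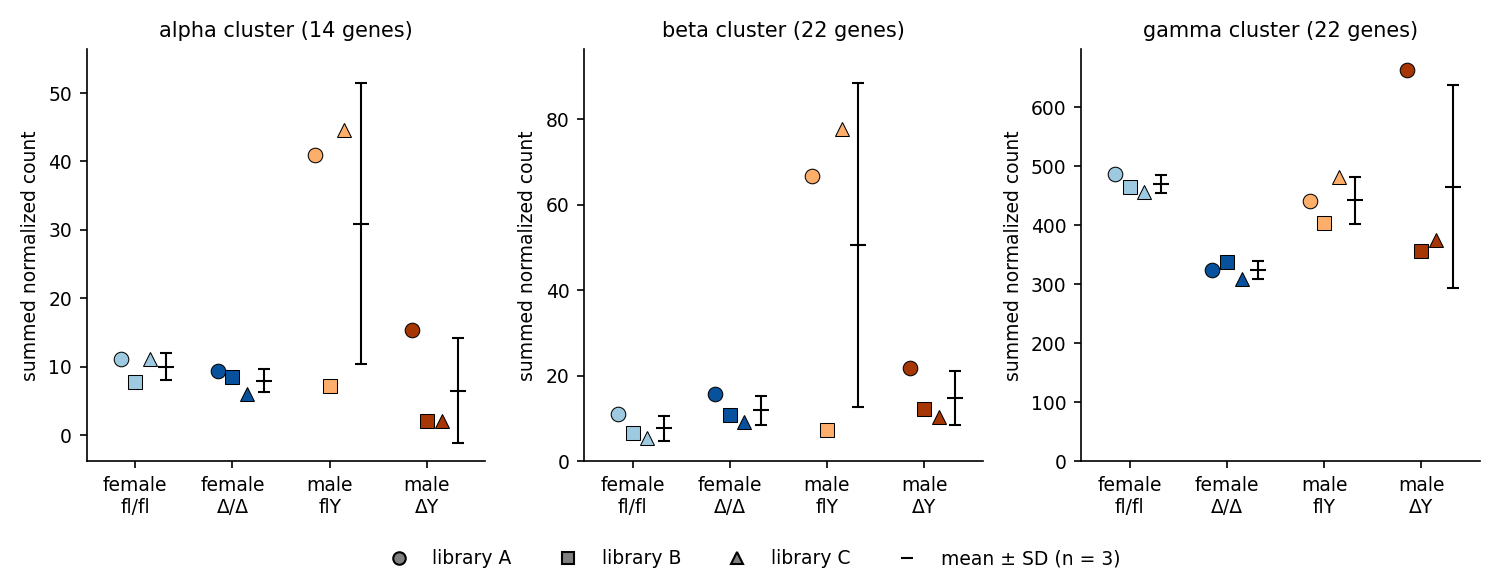
Summed normalized counts of the alpha, beta and gamma members in each of the 12 libraries (points, shape by library, y axes from 0 or just below it and different in each panel), with the mean ± SD of 3 libraries beside them. The Δ/Δ libraries lie below the fl/fl libraries in the gamma panel, flY libraries A and C stand high in the alpha and beta panels, and ΔY library A stands high in the gamma panel.

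The summed gamma level was 486, 464 and 457 normalized counts in fl/fl EpiLCs and 324, 338 and 308 in Δ/Δ EpiLCs. Every Δ/Δ library was thus below every fl/fl library, with means of 469 ± 15.0 and 324 ± 15.1 (SD, n = 3). In males the sum was 441, 403 and 481 in flY EpiLCs (442 ± 39.1) and 663, 356 and 375 in ΔY EpiLCs (465 ± 172). There, library A lay above all the controls and libraries B and C below all of them, so the male genotypes overlapped. The sums are descriptions without a test.

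*Pcdhgc3* made up a large part of the gamma reads, 46.8% ± 4.42 in fl/fl, 38.2% ± 1.05 in Δ/Δ, 32.0% ± 4.30 in flY and 42.0% ± 4.61 in ΔY EpiLCs (SD, n = 3). Its mean over the 12 libraries was 168 normalized counts. *Pcdhga12* followed with 29.5 and *Pcdhgc5* with 27.8. These are counts that are not divided by length, because the length over which each member was counted is not known. The 9 annotated variable exons measured in the gamma cluster are of like length, 2565 to 2961 bp. They were not matched to named members. The lowest gamma member was *Pcdhga6* with 2.68.

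Female *Kdm5c* Δ/Δ EpiLCs had less RNA of the C-type gamma isoforms than fl/fl EpiLCs. Of the 53 members with a read in a female library, 7 passed the test, all lower in Δ/Δ EpiLCs, and 5 of these were gamma members: *Pcdhgc3*, *Pcdhgc4*, *Pcdhgc5*, *Pcdhgb6* and *Pcdhgb8*. The background was high, since 50.0% of the 19583 genes fitted in females passed, 24.6% as lower and 25.4% as higher. Few reads lay behind most members, of which 13 of 58 had a mean of at least 10 over the 12 libraries. Of the 11 members with such a mean over the female libraries, 4 passed, against 65.8% of all genes at that level in a fit of these genes alone. The median log2 fold change was −0.02 over the members and 0.0037 over all genes.

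*Pcdhgc3* binds the Wnt pathway protein Axin1 and is known for a role in dendrite branching of cortical neurons. It had 211, 210 and 237 normalized counts in fl/fl EpiLCs and 127, 130 and 114 in Δ/Δ EpiLCs. The groups did not overlap, and the Δ/Δ mean was 0.564 times the fl/fl mean (log2 fold change −0.82, SE 0.10, 95% confidence interval −1.03 to −0.61, limma adjusted p = 1.80e-06). *Pcdhgc5*, an isoform of the postnatal brain, had 37.2, 39.5 and 20.0 normalized counts in fl/fl and 9.40, 14.3 and 10.1 in Δ/Δ EpiLCs. Again every mutant library was below every control (−1.40, SE 0.32, interval −2.07 to −0.73, limma adjusted p = 0.00117). *Pcdhgc4*, the isoform needed for the survival of many neurons, had 21.1, 17.6 and 20.0 in fl/fl and 9.40, 11.8 and 10.1 in Δ/Δ EpiLCs (−0.85, SE 0.30, interval −1.48 to −0.21, limma adjusted p = 0.0257). Its call was lost, at adjusted p = 0.0565 to 0.0629, without fl/fl library A, fl/fl library C or Δ/Δ library A.

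**Figure D2:**
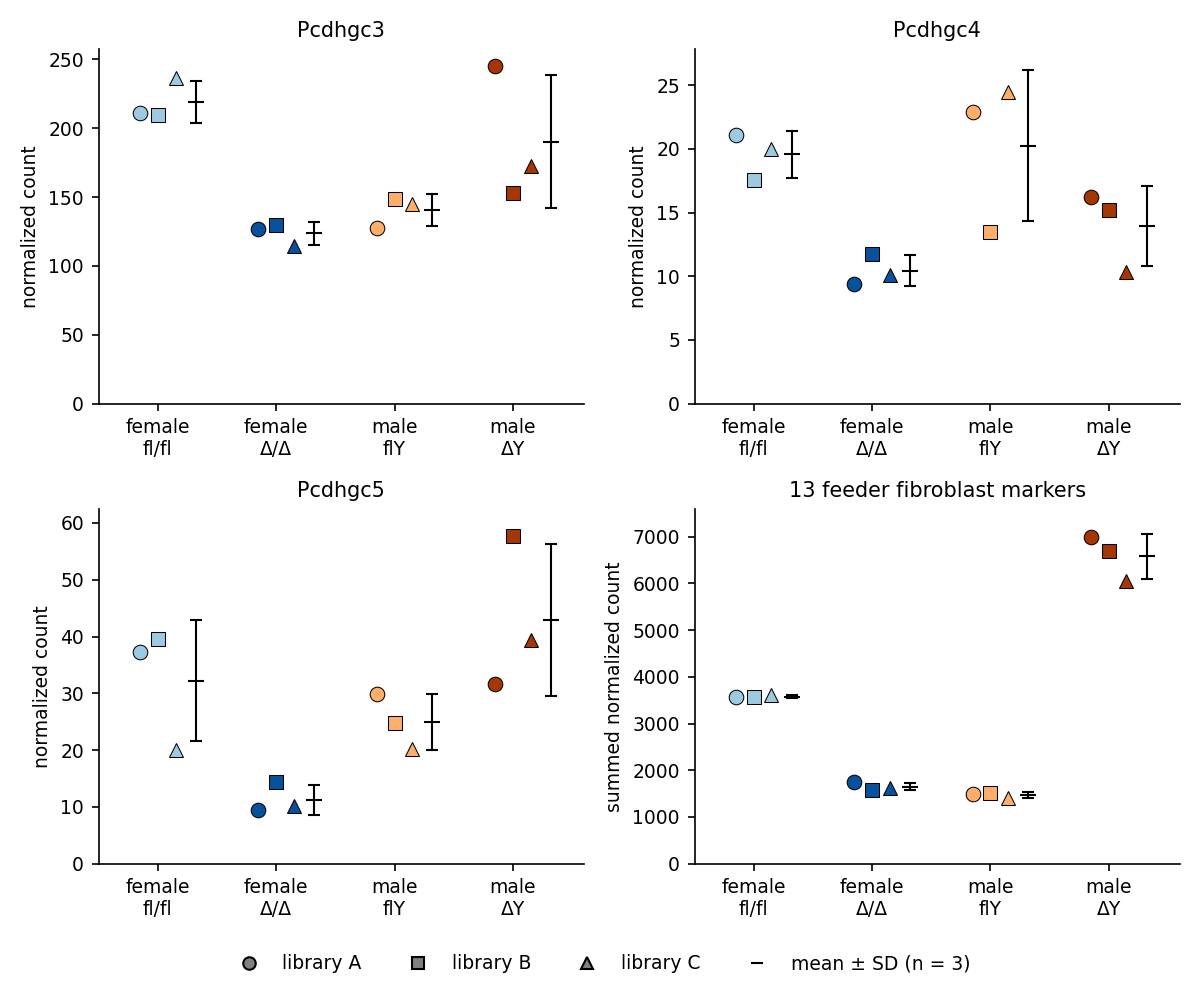
Normalized counts of the C-type gamma isoforms and summed normalized counts of 13 feeder fibroblast markers in each library (points, shape by library, y axes from 0), with the mean ± SD of 3 libraries. In females all Δ/Δ points lie below all fl/fl points in the 4 panels. In males the ΔY points lie above the flY points for *Pcdhgc3*, *Pcdhgc5* and the markers, and overlap them for *Pcdhgc4*.

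Together the C-type isoforms had 270, 267 and 277 normalized counts in fl/fl and 146, 156 and 134 in Δ/Δ EpiLCs, while the 19 A- and B-type isoforms had 216, 198 and 180 against 179, 183 and 174. The C-type sum was lower in each Δ/Δ library, and the ranges of the A- and B-type sum overlapped. The ratio of the Δ/Δ mean to the fl/fl mean was 0.536 for the C-type, 0.938 for the A-type and 0.830 for the B-type sum. As a share of the gamma reads of a library, which no size factor can alter, the C-type isoforms took 57.8% ± 2.57 in fl/fl and 44.9% ± 1.21 in Δ/Δ EpiLCs (SD, n = 3).

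Among the A- and B-type isoforms, *Pcdhgb8* passed the test in females with 18.1, 12.1 and 15.6 normalized counts in fl/fl and 6.27, 5.89 and 4.04 in Δ/Δ EpiLCs (−1.34, SE 0.35, limma adjusted p = 0.00383). RefSeq lists *Pcdhgb8* as a transcribed pseudogene. *Pcdhgb6* had 9.05, 8.78 and 10.0 in fl/fl and 5.49, 4.21 and 2.02 in Δ/Δ EpiLCs (−1.14, SE 0.40, limma adjusted p = 0.0238), and its call was lost, at adjusted p = 0.0557 to 0.0973, without fl/fl library A or C or Δ/Δ library C. The other 17 did not pass, and 9 of the 19 had a log2 fold change above 0. *Pcdhga12*, the highest of them, had 33.2, 28.5 and 33.4 in fl/fl and 33.7, 26.1 and 25.3 in Δ/Δ EpiLCs (−0.16, SE 0.23, interval −0.65 to 0.32, limma adjusted p = 0.587).

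Position along the cluster was also set beside the female differences. The 4 isoforms at its start, *Pcdhga1*, *Pcdhga2*, *Pcdhga3* and *Pcdhgb1*, had log2 fold changes from 0.30 to 0.80 without passing the test, and the C-type isoforms at its end had a median of −0.85. Between them the order was not kept, with *Pcdhga5* at −0.46 and the later *Pcdhgb5* and *Pcdhgb7* at 0.33 and 0.42, none of which passed. Spearman's rho between position and log2 fold change was −0.64 over the 22 members and −0.49 over the 19 without the C-type isoforms. These are descriptions across genes of the same 6 libraries, with the counting error of low counts in many points. In males rho was 0.29 and 0.13.

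**Figure D3:**
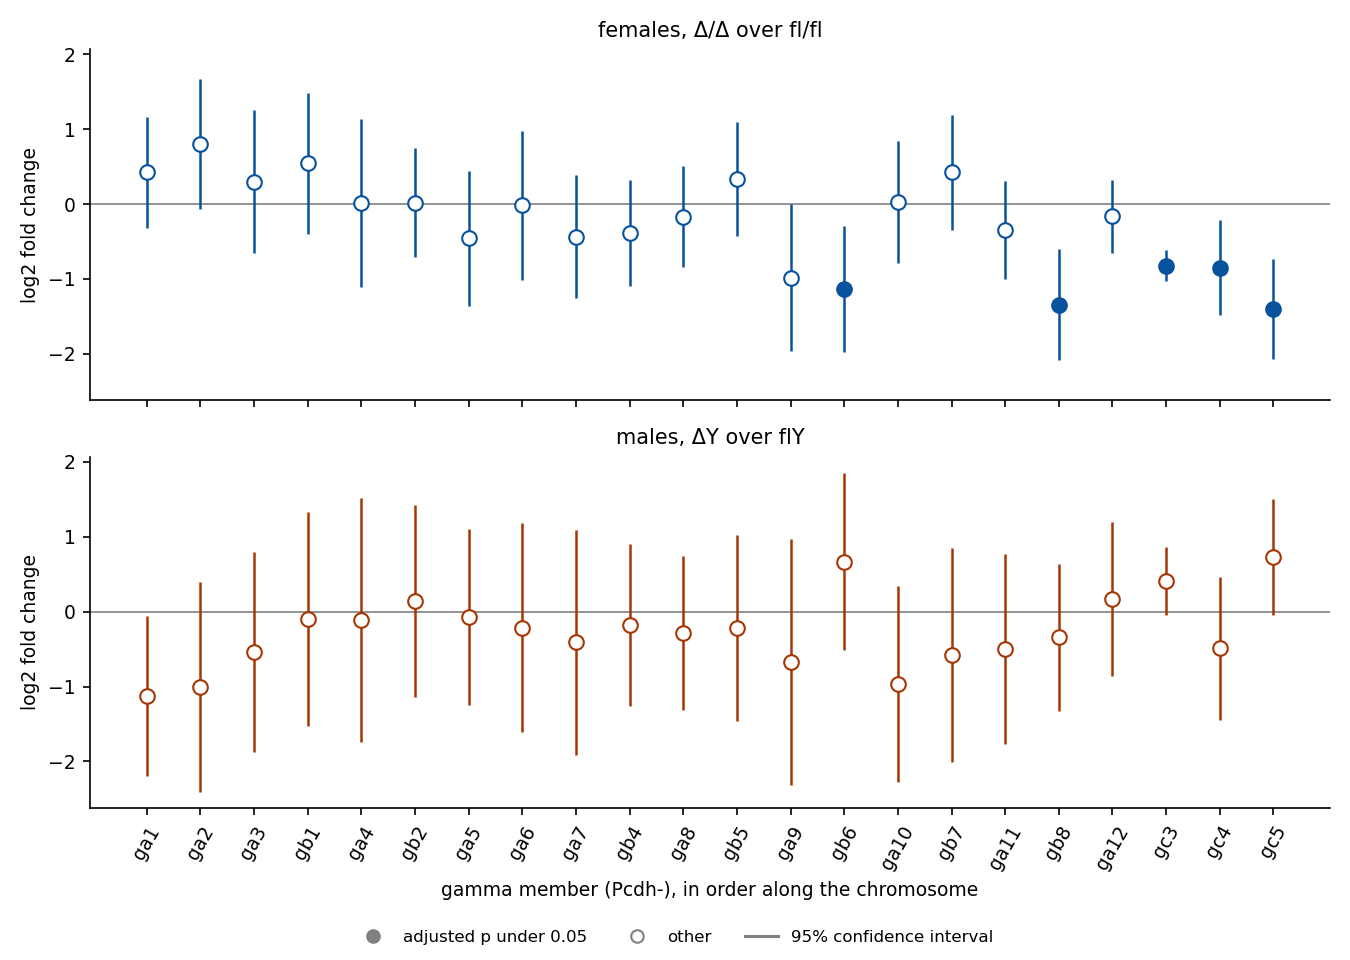
Log2 fold change of *Kdm5c* mutant over control EpiLCs for the 22 gamma members in their order along the chromosome (x axis, from the start of the cluster), for females (upper panel) and males (lower panel), with 95% confidence intervals as lines. Filled points passed the test. In females the filled points are *Pcdhgb6*, *Pcdhgb8* and the C-type isoforms at the right end, and in males no point is filled.

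The female calls outside the gamma cluster rested on a handful of reads. *Pcdhac1*, a C-type alpha isoform, had 2, 1 and 1 reads in fl/fl and none in Δ/Δ EpiLCs, at least 1.62-fold lower when 3 reads over the group stand for none (limma adjusted p = 0.0216). *Pcdha12* had 1 read in each fl/fl library and none in a Δ/Δ library (limma adjusted p = 0.0466), and both groups were at or under 3 reads in all. The call for *Pcdha12* was lost without any 1 of the 6 libraries, and that for *Pcdhac1* without fl/fl library A or Δ/Δ library A or B. No beta member passed. The summed alpha level was 9.96 ± 1.97 normalized counts in fl/fl and 7.96 ± 1.72 in Δ/Δ EpiLCs, and the summed beta level 7.74 ± 2.93 and 11.9 ± 3.39 (SD, n = 3). With 6 to 12 alpha reads and 5 to 20 beta reads in a female library, smaller differences were not detectable at this depth. Over all members, the libraries of the female genotypes did not overlap for 9 of 53, against 54.8% of all genes.

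In males no member passed the test. Of the 56 members with a read in a male library, 6 had an unadjusted p under 0.05, against 5397 of 21900 genes. A fit with limma voom, run on the same reads, also called 0 members. By the adjusted p, 7.78% of the 21900 genes passed. Over the members the median log2 fold change was −0.58, against −0.16 over all genes. The libraries of the male genotypes did not overlap for 6 members, against 26.5% of all genes.

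*Pcdhgc3* had 128, 149 and 145 normalized counts in flY and 245, 153 and 173 in ΔY EpiLCs. All ΔY libraries were above all flY libraries, B by a small margin, and the difference did not pass (0.41, SE 0.20, interval −0.04 to 0.86, limma adjusted p = 0.242). *Pcdhgc5* had 29.9, 24.8 and 20.1 in flY and 31.7, 57.8 and 39.3 in ΔY EpiLCs, again without overlap and without passing (0.73, SE 0.35, interval −0.04 to 1.51, limma adjusted p = 0.224). *Pcdhgc4* had 22.9, 13.4 and 24.4 in flY and 16.2, 15.2 and 10.3 in ΔY EpiLCs, which overlapped (−0.49, SE 0.42, interval −1.44 to 0.46, limma adjusted p = 0.489).

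The A- and B-type isoforms divided the ΔY libraries. Their sum was 370 normalized counts in ΔY library A and 130 and 153 in libraries B and C, against 260, 216 and 292 in the flY libraries. Library A was above and libraries B and C were below every control. The C-type sum, 293, 226 and 222 in the ΔY libraries, was above the 180, 187 and 190 of the flY libraries in each of them. The C-type share of the gamma reads was 44.2% in ΔY library A (95% Wilson interval 40.8% to 47.6%), 63.5% in library B (58.4% to 68.4%) and 59.2% in library C (54.1% to 64.2%). These intervals cover counting error only. In the flY libraries the share was 42.3% ± 3.68 (SD, n = 3). Without ΔY library A, 1 member passed in males, *Pcdha12*, with 7, 3 and 5 reads in flY and no read in ΔY libraries B and C, against 19.7% of all genes in that fit. None of the 22 gamma members passed in it. An unadjusted p under 0.05 was reached by 7 of them, against 6877 of 21844 genes.

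Among the male controls, the alpha and beta members were high in the libraries with reads on silent genes. The summed alpha level was 40.9, 7.24 and 44.6 normalized counts in flY libraries A, B and C and 15.4, 2.03 and 2.07 in the ΔY libraries. The summed beta level was 66.8, 7.24 and 77.6 in the flY and 21.9, 12.2 and 10.3 in the ΔY libraries. In both clusters flY libraries A and C lay above all the others. ΔY library A lay above ΔY libraries B and C in both clusters. The silent genes had 0.110 normalized counts per gene in it and 0.0740 and 0.0995 in B and C, though their list was chosen as low there. Beta members had 9.23 times as many normalized counts in flY library A as in B, and 10.7 times as many in C as in B, against 10.6 and 11.8 times for the silent genes. For the alpha members these ratios were 5.65 and 6.16. Per kilobase of exon, the beta members had 0.835 and 0.970 normalized counts in flY libraries A and C, and 4072 silent genes with a known exon length had 1.01 and 1.14. Not every member followed this pattern. *Pcdhb2* had 5, 3 and 1 reads in flY libraries A, B and C. *Pcdhb22* had 1, 2 and 0 reads in flY and 5, 5 and 3 in ΔY EpiLCs, a difference that did not pass (1.45, SE 0.58, limma adjusted p = 0.160). Without flY library B, 18 members passed in males (17 lower, 1 higher), 6 of the alpha and 12 of the beta cluster, against 21.4% of all genes. Without flY libraries A and C, a choice made after seeing the data that left 1 flY library, limma called 0 of 19066 genes, so a count of 0 among the 45 members fitted was fixed (1 member and 2799 genes had an unadjusted p under 0.05). In that fit the median was 0.29 over the members and 0.02 over all genes. The part of the reads on silent genes in the alpha and beta values was not tested otherwise.

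**Figure D4:**
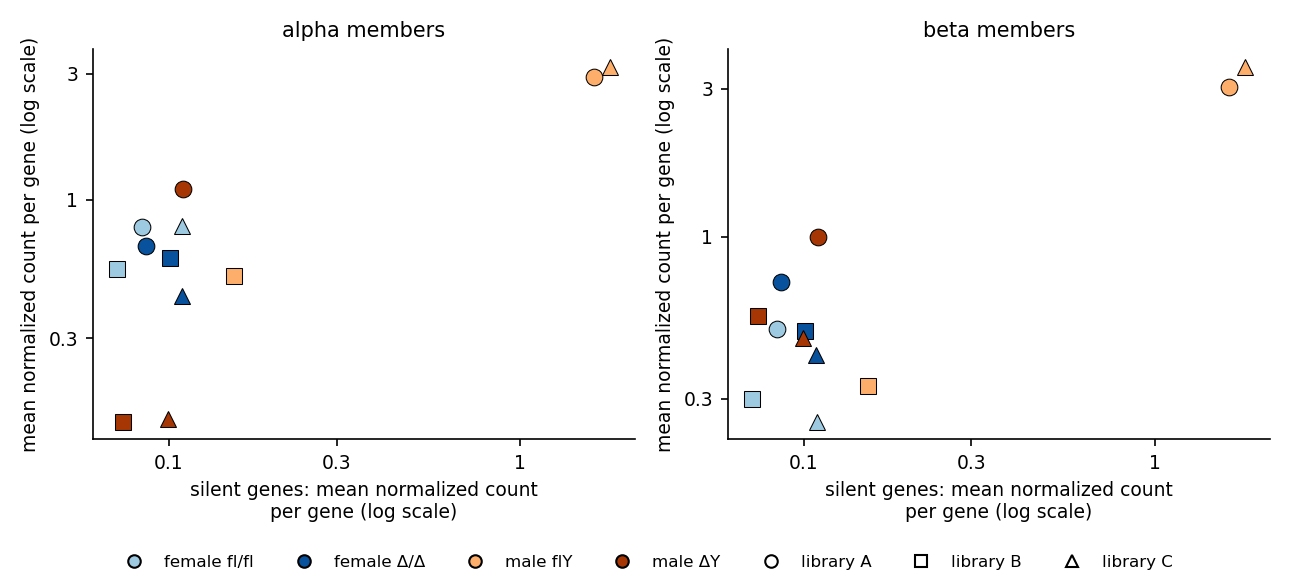
Mean normalized count per gene of the alpha members (left) and beta members (right) against that of 4961 nearly silent genes, in each of the 12 libraries, on log axes. flY libraries A and C lie alone at the upper right of both panels. The silent genes were chosen as low in the 9 libraries of the other genotypes, so only the flY points are free on the x axis.

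The change on loss of *Kdm5c* differed between the sexes for *Pcdhgc3* and *Pcdhgc5*. The interaction, the log2 fold change in males minus that in females in a fit of all 12 libraries, passed for 3 of 57 members, against 21.2% of 22014 genes. It was 1.23 for *Pcdhgc3* (SE 0.22, interval 0.75 to 1.71, limma adjusted p = 0.00148) and 2.13 for *Pcdhgc5* (SE 0.48, interval 1.10 to 3.17, limma adjusted p = 0.00618). Both passed under all 18 alternatives tried, the omission of each library included. The third was *Pcdhb20*, with 0, 0 and 0 reads in fl/fl, 1, 1 and 1 in Δ/Δ, 3, 1 and 4 in flY and 1, 0 and 0 in ΔY EpiLCs (−2.55, SE 0.62, limma adjusted p = 0.00925). It passed in all 18 fits that held it, and was −1.65 without flY libraries A and C. For *Pcdhgc4* the interaction was 0.36 (interval −0.66 to 1.38, limma adjusted p = 0.618), and for *Pcdhgb8* it was 1.00 (−0.12 to 2.12, limma adjusted p = 0.195), so a difference between the sexes was not shown for either. Without flY library B 16 members passed, against 33.3% of all genes in that fit, and without ΔY library A 6, against 29.9%.

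The control libraries of the interaction are also those of the comparison between the sexes, so the results share them. Among the controls, female EpiLCs had more *Pcdhgc3* than male EpiLCs, 219 ± 15.2 against 141 ± 11.4 normalized counts (SD, n = 3), with no overlap (log2 difference 0.64, SE 0.16, limma adjusted p = 0.0111). This call was lost, at adjusted p = 0.0534 and 0.0509, without fl/fl library C or flY library A, and at 0.178 without flY libraries A and C, which left 1 flY library. In all, 5 of 57 members passed, against 21.5% of 22014 genes. The other 4, *Pcdha12*, *Pcdhb10*, *Pcdhb12* and *Pcdhb20*, were lower in females, each with 0 to 3 reads over the fl/fl libraries and with most of its flY reads in libraries A and C. Without flY libraries A and C, *Pcdhb10* and *Pcdhb12* had no read left and were not fitted, and *Pcdha12* and *Pcdhb20* were at adjusted p = 0.390 and 0.122 by limma. *Pcdhgc5* and *Pcdhgc4* did not pass, at 0.32 (interval −0.41 to 1.05) and −0.01 (−0.73 to 0.71). In order of level, *Pcdhgc3* was thus highest in fl/fl EpiLCs, at 219 ± 15.2, followed by ΔY at 190 ± 48.5, flY at 141 ± 11.4 and Δ/Δ at 124 ± 8.25, and neighbouring groups in this order overlapped in their libraries, save ΔY and flY, whose difference did not pass.

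Markers of fibroblasts were set beside *Pcdhgc3*. Fibroblasts were the feeder cells on which the ESC lines were derived and cultured. The methods name them for neither the later gelatin passages nor the EpiLC culture. The summed level of the 13 markers was 3558 to 3609 normalized counts in fl/fl, 1587 to 1741 in Δ/Δ, 1401 to 1520 in flY and 6988, 6692 and 6058 in ΔY libraries A, B and C, so that fl/fl and ΔY EpiLCs stood above the other groups for the markers as for *Pcdhgc3*, with ΔY highest for the markers. In females 6 of the 13 passed, all lower, and in males 6, all higher, with *Col1a1*, *Col1a2*, *Col5a1*, *Postn* and *Pdgfrb* in both counts. Of all genes, 50.0% passed in females, 24.6% as lower, and 7.78% in males. The markers that did not pass in females went in both directions. None of the 13 had a mean under 1 over the 12 libraries. *Col1a1*, which encodes a collagen chain, had 1270 to 1330 in fl/fl, 279 to 285 in Δ/Δ, 200 to 251 in flY and 1900 to 2675 in ΔY EpiLCs. The part of these cells in the *Pcdhgc3* values was not tested. Neuron markers, 11 in number, summed to 1444 to 1461 in fl/fl, 1125 to 1172 in Δ/Δ, 1339 to 1435 in flY and 841 to 1296 in ΔY EpiLCs, and 8 passed in females (2 higher, 6 lower) and 3 in males (1 higher, 2 lower).

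Some protocadherins and large cadherins outside the clusters had larger differences in females than any clustered member. Of the 20 in the tables, 12 passed in females, 10 of them lower, with a median of −0.65. Of all genes, 50.0% passed in females, 24.6% as lower. *Pcdh7* was at 444 to 475 normalized counts in fl/fl and 19.2 to 34.5 in Δ/Δ EpiLCs (−4.10, SE 0.16, limma adjusted p = 6.08e-13). *Pcdh11x* and *Fat3* were also lower in Δ/Δ EpiLCs, at −4.06 and −3.11, as was *Pcdh18* at −2.17. In males 1 of the 20 passed, against 7.78% of all genes, *Pcdh11x* at −3.84 (limma adjusted p = 0.0182). It passed in 8 of 13 male fits, and its level was 4.06 in ΔY library A and 0 in libraries B and C. The interaction passed for 5, against 21.2% of all genes. All 5 had the male above the female change, *Pcdh7* (5.01), *Pcdh18* (3.45), *Dchs1* (2.13) and *Pcdh1* (1.26) among them. *Pcdh19*, an X-linked gene linked to epilepsy, did not pass in either sex and was higher in female than in male controls (1.14, SE 0.28, limma adjusted p = 0.0110). The call between the controls was lost without flY library C (limma adjusted p = 0.0554). The difference was 0.72 without flY libraries A and C, which left 1 flY library.

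The neighbours of the clusters on chromosome 18 did not follow the gamma members as a block. Of the 21 in the tables, 10 passed in females (5 higher, 5 lower), 1 in males and 3 in the interaction. Of all genes, 50.0%, 7.78% and 21.2% passed in these fits. *Taf7*, which lies between the beta and the gamma cluster and encodes a subunit of the general transcription factor TFIID, was at 808 to 865 normalized counts in fl/fl and 1118 to 1275 in Δ/Δ EpiLCs (0.53, SE 0.06, limma adjusted p = 1.54e-06). *Arap3*, a regulator of small GTPases that starts 130.8 kb past the gamma cluster, was at 285 to 357 in fl/fl, 92.0 to 110 in Δ/Δ, 92.0 to 141 in flY and 321 to 402 in ΔY EpiLCs. Its log2 fold change was −1.70 in females and 1.61 in males. *Pcdh1*, 344.0 kb past the cluster, was at 275 to 299, 147 to 159, 191 to 238 and 231 to 332 in the same groups, with −0.90 in females (limma adjusted p = 9.52e-08) and 0.36 in males (limma adjusted p = 0.234).

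Genes that act on the clusters, and partners of their proteins, are given by their counts. Of all genes, 50.0% passed in females, 7.78% in males and 21.2% in the interaction. In females 65.8% of the genes with a mean of at least 10 passed in a fit of these genes alone. The counts below are to be read beside these shares. Of 16 genes of genome architecture and cohesin, which includes *Ctcf* and *Rad21*, 8 passed in females (5 higher, 3 lower) and 2 in males. A list of 18 genes held those known for silencing of the clusters and for adding or removing DNA methylation, among them *Smchd1*, *Dnmt3b*, *Rest* and *Tet1*. Of these 18, 13 passed in females (8 higher, 5 lower), 2 in males and 9 in the interaction. The split by direction thus mixes genes that add and genes that remove methylation. *Dnmt3a*, a de novo DNA methyltransferase, was at 2046 to 2192 in fl/fl and 6334 to 6522 in Δ/Δ EpiLCs (1.60, SE 0.05, limma adjusted p = 4.53e-14), and its change in males was −0.08 (limma adjusted p = 0.779). Of 21 signalling partners of the proteins, such as the focal adhesion kinases and the subunits of the WAVE complex, 12 passed in females (4 higher, 8 lower) and 2 in males. Of the marker lists not yet given, 9 of 11 naive ESC markers passed in females and 6 in males, all higher, and 10 of 12 epiblast markers passed in females (4 higher, 6 lower) and 4 in males, all lower. All 11 extraembryonic endoderm markers were higher in Δ/Δ EpiLCs, and 1 passed in males, as lower. Neural progenitor markers passed for 4 of 9 in females (1 higher, 3 lower) and for 0 in males, and mesoderm and streak markers for 5 of 8 (3 higher, 2 lower) and 1 (higher).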

How the data were processed

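RNA-Seq libraries of 12 EpiLC samples, depleted of ribosomal RNA and specific for strand, were sequenced by the authors as single-end reads of 50 bp. Per the labels and the methods, reads were mapped to mm9 with TopHat 2.1.0 and Bowtie2 2.2.6.0, allowing 1 mismatch, and uniquely mapped reads were kept. HTseq is named in the reporting summary, and the strand setting and annotation of the counting are not given in the sources used here. The deposited signal columns hold mean normalized counts of each genotype, in 1 table per sex. The columns of the authors' own comparisons (fold changes, p-values and adjusted p-values) were not used. The number of unused columns that hold values of a sample was 0.

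Reads of each library were recovered as the whole numbers whose quotients by the size factors average to the deposited mean. All genes with a mean up to 10000 gave exactly 1 solution (22834 to 22860 genes per genotype, 86.0% to 91.4% of the normalized reads). A difference between sexes uses both tables, whose size factors lay at 0.988 to 0.999 times those of a median of ratios over the 12 libraries. Tests were made with limma 3.58.1 (trend) in R 4.3.3 on log2(normalized count + 1), over genes with 1 read or more, per sex and over 12 libraries for the interaction and the control sexes. Tested on simulated data, the female fit of 19083 genes recovered 95.5% of 200 changed genes and the male fit of 21554 genes recovered 90.5%. The planted changes lay in genes with more reads than most members, with the same spread for all genes and no library set apart. These rates thus do not cover the members with few reads. Sequence positions come from the mm9 genome with GENCODE vM1, and the order of the gamma members from RefSeq (GRCm38.p6). Named were the 3 highest members of each cluster, the C-type isoforms, all members that passed a test, and, of the other lists, up to 4 genes per comparison with the largest change at a mean of at least 10; *Ctcf*, *Rad21* and the other genes listed without a value only say what a list holds, and *Pcdha4*, *Pcdhga1*, *Pcdhga2*, *Pcdhga3*, *Pcdhga5*, *Pcdhga6*, *Pcdhgb1*, *Pcdhgb5*, *Pcdhgb7* and *Smchd1* were added after their values were seen. The members and lists were chosen with earlier results of these data known. The ESC lines are separate, and libraries that were worked out cannot be tied to them. Alternatives were a pseudocount of 0.1, minimum means of 1 and 10, limma voom, median-of-ratios size factors and leaving out each library.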

Additional observations from a re-analysis of the deposited data

Results flagged for a closer look

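The change on loss of *Kdm5c* differed between the sexes, by the interaction term of limma over 12 libraries, for 3 members: *Pcdhgc3* (male minus female log2 fold change 1.23, −0.82 in females and 0.41 in males), *Pcdhgc5* (2.13, −1.40 and 0.73) and *Pcdhb20* (−2.55, on 0 to 4 reads in a library). Among the genes of other lists named with values, the term passed for these: *Pcdh7* (5.01), *Pcdh18* (3.45), *Dchs1* (2.13), *Pcdh1* (1.26), *Arap3* (3.31), *Col1a1* (5.55), *Dnmt3a* (−1.68) and *Kdm5c* itself (0.50). Of these 8, *Arap3* and *Col1a1* passed within each sex in opposite directions, and neither *Pcdhgc3* nor *Pcdhgc5* passed in males.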

How the results depend on the processing

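No paired analysis was possible because the libraries worked out from the group means carry no replicate numbers. The count of 7 in females became 8 at a pseudocount of 0.1, where *Pcdhb20* was called as higher, and 5 at a minimum mean of 1. It became 4 at a minimum mean of 10, where only 11 members were fitted. When a library was left out it was 4 to 6, with the count of 4 without fl/fl library A, fl/fl library C or Δ/Δ library A. *Pcdhb22* was called as higher without Δ/Δ library C, and another beta member without fl/fl library A. Of the 7 themselves, 3 were still called without fl/fl library A and 4 to 6 without another library. *Pcdhgc3*, *Pcdhgc5* and *Pcdhgb8* passed in all 12 female fits. In males the count of 0 became 0 to 18 when a library was left out, and in the interaction the count of 3 became 3 to 16. For the controls of both sexes the count of 5 became 2 at a pseudocount of 0.1, 3 at a minimum mean of 1, 1 at a minimum mean of 10, 3 with limma voom, 1 without flY libraries A and C (with 1 flY library left, and not among the 5), and 1 to 18 when a library was left out. Omission of ΔY library A or of a Δ/Δ library changes that count through the shared estimate of the spread. *Pcdhac1* turned to 1.25 in the interaction and to 1.25 between the controls without flY libraries A and C, from −0.46 in each. The causes were not tested. Of the cluster sums, the ΔY means rest on library A, without which they were 2.05 for the alpha, 11.3 for the beta and 366 for the gamma cluster. Depth limits the alpha and beta clusters, whose members had a median mean of 0.898 and 0.962 normalized counts.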
